A study of Mus musculus with 3 samples.

Results

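The subject here is the small RNA reads of the mouse mitochondrial genome: every read placed on chromosome M, assigned by position to its 37 genes, which are 2 rRNA, 22 tRNA and 13 protein-coding genes. The members were taken from the annotation and not from the measured values. Reads came from 3 libraries, 1 per group. The MEL library was an RNA immunoprecipitate with a rabbit polyclonal antibody against MIWI2 (PIWIL4) from MEL cells, a mouse erythroleukemia line of Friend virus-transformed early erythroblasts. The spleen library was made with the same antibody from the unfractionated splenocytes of C57Bl6/J mice aged 10 weeks, a mixture of cell types. The testis library, from the same strain and age, had no antibody step: its total RNA was size-selected as a band of about 29 nt from a gel of 18% polyacrylamide. Of 181894 distinct intervals (pairs of start and end) in MEL, 335 were mitochondrial, of 100908 in spleen 235, and of 304127 in testis 9. Since a group is 1 library, no p-value is given, and 95% intervals reflect only the counting of reads. Neither input RNA nor a mock immunoprecipitate was analysed here, so RNA bound to MIWI2 and RNA carried along in the precipitate cannot be told apart. The labels do not say how many mice gave the splenocytes.

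The mitochondrial genome is a small circle whose strands are transcribed into long RNAs that span many genes. Most of the rRNA and protein-coding genes are bordered by tRNA genes, and the RNA is cut at both ends of each tRNA, by mitochondrial RNase P at the 5′ end and by RNase Z (ELAC2) at the 3′ end, which also frees the RNAs in between. The CCA at the 3′ end of a mature tRNA is added afterwards and is not encoded in the gene. MIWI2 is a PIWI-family protein best known from foetal testis, where it carries PIWI-interacting RNAs (piRNAs), many of which begin with U.

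The reads lay mainly on the first part of a few tRNA genes. The genes that carried most of them are shown first, each whole and 5′ to 3′ on its own strand, with its most-read interval in capitals. They were copied from the GENCODE M21 transcripts, and coordinates are those of chromosome M in that annotation, counted from 1. The files carry no strand, so each capital stretch is the read if it came from the strand of the gene.

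mt-Tm, 3845 to 3913, plus strand, in MEL and in spleen: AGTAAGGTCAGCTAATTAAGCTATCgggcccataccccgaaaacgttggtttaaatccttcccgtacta
mt-Ts2, 11613 to 11671, plus strand, in spleen: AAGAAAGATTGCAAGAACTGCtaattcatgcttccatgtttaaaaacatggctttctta
mt-Tl1, 2676 to 2750, plus strand, in spleen: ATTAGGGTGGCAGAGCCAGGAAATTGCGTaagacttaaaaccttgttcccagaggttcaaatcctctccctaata
mt-Tq, 3772 to 3842, minus strand, in spleen: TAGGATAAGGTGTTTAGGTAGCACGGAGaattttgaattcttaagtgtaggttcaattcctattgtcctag
mt-Tw, 4950 to 5016, plus strand, in spleen: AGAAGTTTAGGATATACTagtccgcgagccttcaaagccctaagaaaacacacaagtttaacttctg
mt-Ty, 5260 to 5326, minus strand, in MEL: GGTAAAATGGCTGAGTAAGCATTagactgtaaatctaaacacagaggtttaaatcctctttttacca
mt-Tp, 15356 to 15422, minus strand, in spleen: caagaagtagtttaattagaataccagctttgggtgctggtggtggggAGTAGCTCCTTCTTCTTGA

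In 6 of these 7 genes the capitals begin at the first base of the gene, and in mt-Tp they end at its last base. Beside them stand the most-read intervals of the rRNA genes, with up to 10 bases on either side in lower case. mt-Rnr2 encodes the rRNA of the large mitochondrial ribosomal subunit and mt-Rnr1 that of the small one.

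mt-Rnr2, 1094 to 1115, in MEL: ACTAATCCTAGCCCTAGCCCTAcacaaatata
mt-Rnr2, 1094 to 1124, in spleen: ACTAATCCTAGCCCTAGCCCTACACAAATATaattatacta
mt-Rnr1, 472 to 494, in MEL: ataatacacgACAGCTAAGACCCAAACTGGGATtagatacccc
mt-Rnr1, 754 to 778, in spleen: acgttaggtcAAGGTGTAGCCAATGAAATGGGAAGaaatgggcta
mt-Rnr1, 765 to 787, in spleen: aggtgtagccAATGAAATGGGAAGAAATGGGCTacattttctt

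In mt-Rnr2 both libraries had their most-read interval at the first base, while in mt-Rnr1 the most-read intervals lay inside the gene and at different places, with 7 reads in MEL and 15 reads each on the overlapping pair in spleen.

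Mitochondrial reads were a small share of each library. MEL had 1822 of 823452 reads on the mitochondrial genome, or 0.221% (0.211 to 0.232) and 2213 reads when the library is scaled to 1000000 (RPM). Spleen had 2372 of 692011, or 0.343% (0.329 to 0.357) and 3428 RPM. Testis had 9 of 1143785, or 0.000787% (0.00036 to 0.00149) and 7.87 RPM. The genome makes up 0.000601% of the sequence spanned by the reads of all libraries, so reads fell on it at 368 times the rate its length gives in MEL and at 570 times in spleen. In testis the factor was 1.31. Among reads of 24 to 32 nt alone, the length range in which the testis gel band lay, MEL had 0.459%, spleen 0.978% and testis 0.00084%. The gel band is no immunoprecipitate, and the effects of the antibody step, the gel and the tissue cannot be told apart in this contrast.

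The 9 testis reads were 24 to 32 nt long and lay on 9 different intervals. Of these reads 3 were on tRNA genes (2 on mt-Tl1 and 1 on mt-Tv), 1 each on mt-Rnr1, mt-Rnr2, mt-Nd1 and mt-Nd5, and 2 between genes. The mt-Tv read, from 1025 to 1052, began at the first base of that gene, and mt-Tm and mt-Ts2 had 0 testis reads, which allows up to 2.62 RPM.

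Mitochondrial reads differed in length from the rest of their library. In MEL 79.3% (77.3 to 81.1) were 23 to 26 nt long, against 26.9% of the reads on other chromosomes, and the most frequent length was 25 nt. Only 1.65% (1.11 to 2.34) were 17 nt or shorter, against 34.4% elsewhere. In spleen the most frequent length was 21 nt, against 16 nt elsewhere, and lengths of 20 to 22 nt took 37.1% (35.1 to 39.0), against 3.78%. Reads of 17 nt or less made up 15.01% (13.6 to 16.5) of the mitochondrial reads of spleen and 73.4% of its other reads. Reads of 29 to 32 nt, the long end of the range, were 1.43% of the mitochondrial reads in MEL and 5.06% in spleen, against 3.13% and 5.16% elsewhere in these libraries. The lengths differed by gene class. In MEL 23 to 26 nt took 87.9% of the reads on tRNA genes, 41.6% on rRNA genes and 44.7% on protein-coding genes. In spleen 20 to 22 nt took 41.1%, 24.5% and 17.3% of these.

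**Figure D1:**
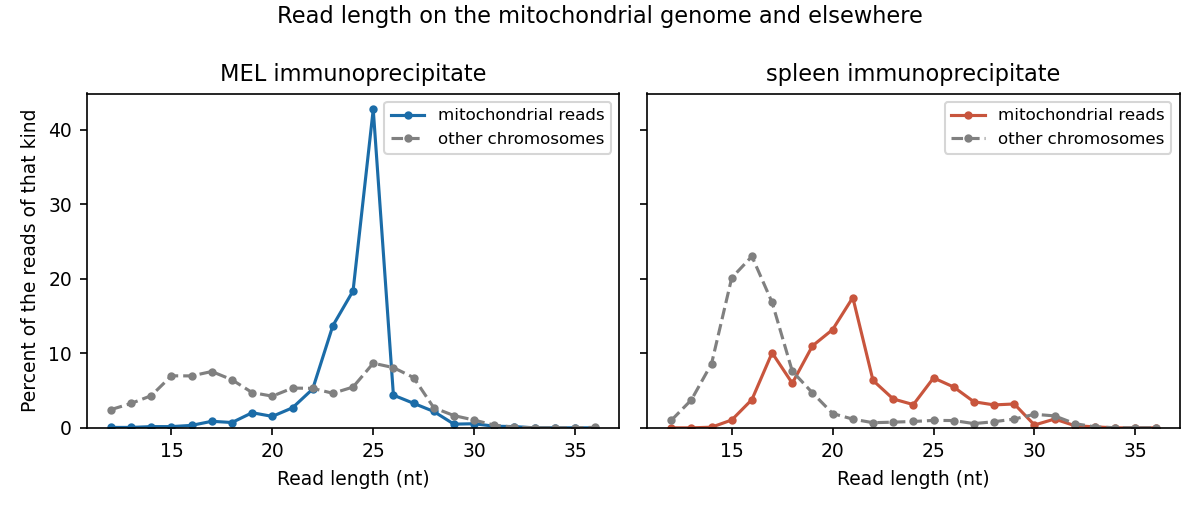
Percent of reads (vertical axis) at each read length in nt (horizontal axis) for mitochondrial reads (solid line) and reads on the other chromosomes (dashed line) in the MEL and spleen immunoprecipitates. Mitochondrial reads peak at 25 nt in MEL and at 21 nt in spleen, where the rest of the library is most often 16 nt long. mt-Tm holds 705 of the 779 MEL reads of 25 nt, and mt-Ts2 386 of the 415 spleen reads of 21 nt.

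tRNA genes held most mitochondrial reads in both immunoprecipitates, and protein-coding genes a larger share in spleen than in MEL. tRNA genes, 9.21% of the genome by length, held 81.0% of the mitochondrial reads in MEL (1475 reads, interval 79.1 to 82.7) and 79.2% in spleen (1878 reads, 77.5 to 80.8). rRNA genes held 16.4% (298 reads, 14.7 to 18.1) and 14.6% (347 reads, 13.2 to 16.1). Protein-coding genes, 70.0% of the length, held 2.09% (38 reads, 1.48 to 2.85) in MEL and 5.61% (133 reads, 4.72 to 6.61) in spleen. Per length, tRNA genes had 1193 RPM per kilobase in MEL and 1808 in spleen, rRNA genes 143 and 198, and protein-coding genes 4.05 and 16.9. By reads, spleen over MEL was 1.52 (1.41 to 1.62) for tRNA genes, 1.39 (1.18 to 1.62) for rRNA genes and 4.16 (2.88 to 6.14) for protein-coding genes. The tRNA share rested on a pair of genes: without the reads of mt-Tm and mt-Ts2 it was 25.9% in MEL and 42.6% in spleen, and the rRNA share was 63.7% and 40.3%.

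In both libraries a few intervals held most of the reads. The mean number of copies per interval was higher in spleen, while the most-read intervals held a larger share in MEL. A mitochondrial interval was read 5.44 times on average in MEL and 10.1 times in spleen, against 4.53 and 6.85 elsewhere. In MEL 226 of the 335 intervals were read once, in spleen 47 of the 235. The most-read interval held 38.4% of the mitochondrial reads in MEL and 16.3% in spleen, and the 8 most-read held 69.6% and 56.2%. With no molecular identifiers, copies made by PCR and separate molecules cannot be told apart, so the number of distinct intervals is given beside the main counts. In MEL the 8 most-read intervals comprised 6 that began at the first base of mt-Tm, 1 in mt-Ty and 1 in mt-Rnr2. In spleen they comprised 7 at the first base of mt-Ts2 and 1 at that of mt-Tm.

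**Figure D2:**
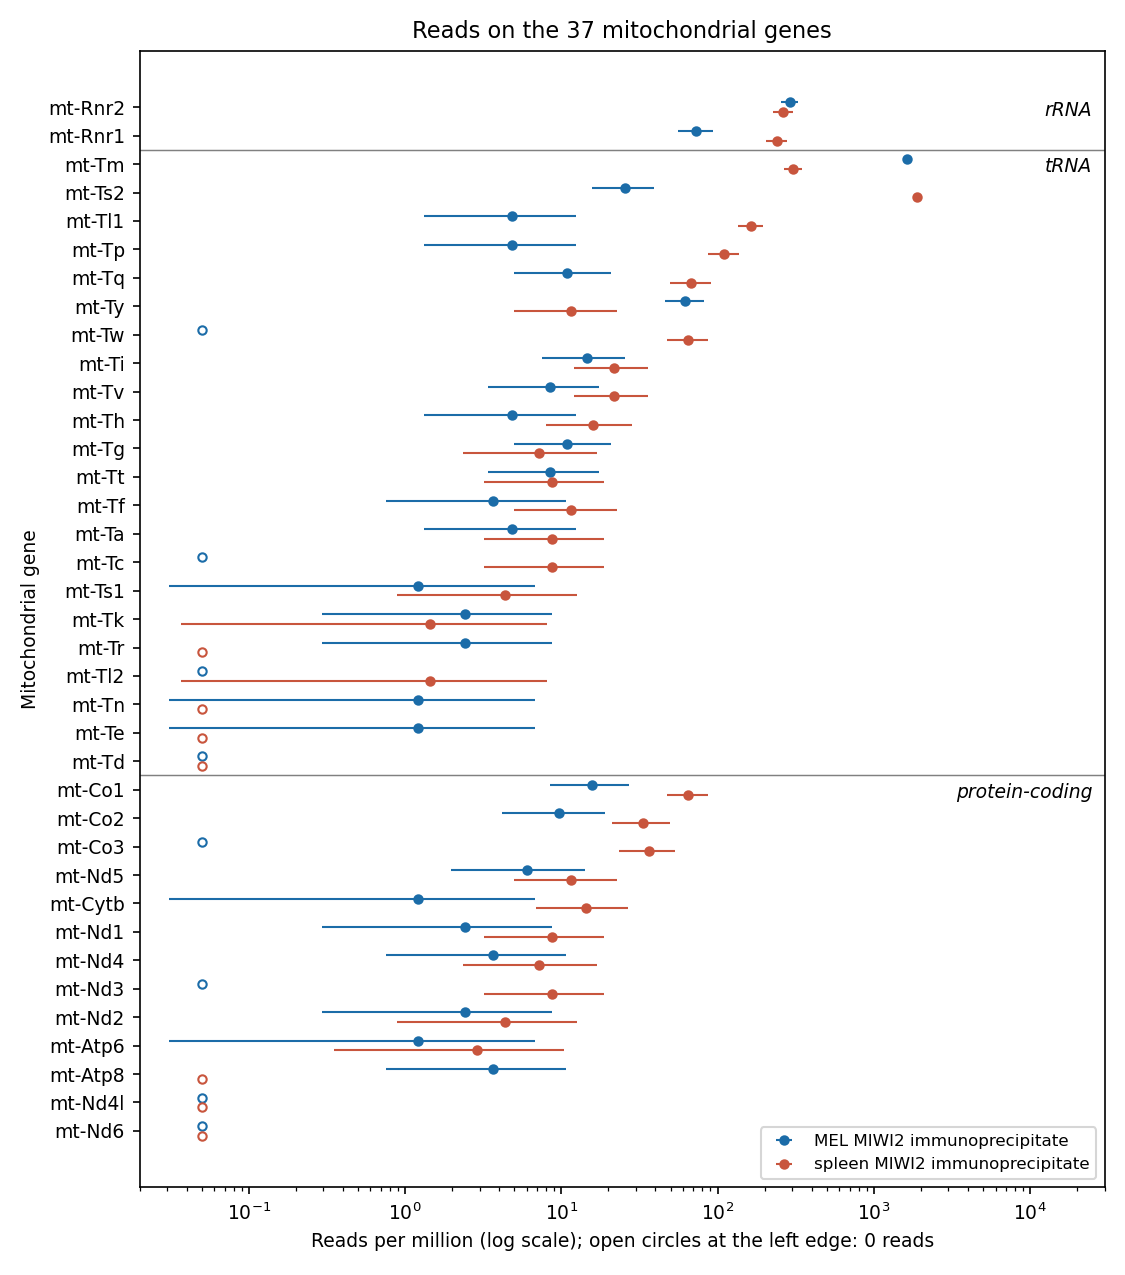
RPM (horizontal log axis) on each of the 37 mitochondrial genes (vertical axis, by class) in the MEL and spleen immunoprecipitates, with exact Poisson 95% intervals as bars and open circles for 0 reads. mt-Tm in MEL and mt-Ts2 in spleen stand above every other gene, and most protein-coding genes lie below 20 on this axis.

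mt-Tm, the tRNA for methionine that serves both the first and the inner methionine codons in mitochondria, was the gene with most reads in MEL. It had 1333 reads in MEL, or 1619 RPM (1533 to 1708), which was 73.2% of the mitochondrial reads of that library. In spleen it had 211 reads, or 305 RPM (265 to 349). Reads that began at position 3845, the first base of the gene, numbered 1247 in MEL (93.5%, 92.1 to 94.8) and 206 in spleen (97.6%, 94.6 to 99.2). The same end was thus read in both libraries, and MEL had more other ends, with 16 left ends and 48 intervals against 2 and 10.

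The length of the mt-Tm fragment differed between the libraries in how it trailed off. The 25 nt fragment, ending at 3869, was the most frequent in both, with 699 MEL reads (56.1% of those at the first base, 53.2 to 58.8) and 85 spleen reads (41.3%, 34.5 to 48.3). In MEL the next were shorter, with 282 reads of 24 nt and 159 of 23 nt, and 4.49% (3.41 to 5.79) were 26 to 28 nt long. In spleen lengths of 26 to 28 nt took 41.7% (34.9 to 48.8), and the next after 25 nt was 26 nt, with 58 reads. The anticodon CAU of mt-Tm occupies bases 31 to 33, so 25 nt fragments ended before the anticodon loop, which starts at base 29. Of the reads at the first base, 99.8% in MEL and 99.5% in spleen ended before the loop.

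mt-Ts2, one of the 2 mitochondrial serine tRNAs and the one that lacks the D arm, was the gene with most reads in spleen. It had 1301 spleen reads, or 1880 RPM (1779 to 1985), 54.8% of the mitochondrial reads of that library, and 21 MEL reads, or 25.5 RPM (15.8 to 39.0). Of the spleen reads 1298 (99.8%, 99.3 to 99.95) began at position 11613, the first base, as did 18 of the 21 in MEL. The spleen reads at the first base were most often 21 nt long (386 reads), then 20 nt (241), 19 nt (207) and 17 nt (193), and 96.1% (94.9 to 97.1) were 16 to 22 nt long. The 18 MEL reads there ran from 16 to 29 nt, with 5 at 19 nt and 0 at 21 nt, and 11 of them (61.1%, 35.7 to 82.7) were 16 to 22 nt long, a smaller share than in spleen beyond the counting intervals. By distinct interval mt-Ts2 had 17 in spleen and 12 in MEL.

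The fragments of mt-Ts2 ended elsewhere in the tRNA than those of mt-Tm. Its anticodon GCU was placed at bases 20 to 22, and the loop at bases 18 to 24, by the pairing of the stem around it. In spleen 76.8% (74.4 to 79.1) of the reads at the first base ended within the loop, 21.4% (19.2 to 23.8) before it and 1.77% beyond it. For the other 20 tRNA genes together, 79 of 81 MEL reads at the first base (97.5%, 91.4 to 99.7) and 192 of 214 spleen reads (89.7%, 84.8 to 93.4) ended before the loop. In each library 11 of these genes had such reads. mt-Ty held 50 of the 81 in MEL, and mt-Tl1 and mt-Tq held 102 and 47 of the 214 in spleen. In spleen 13 of 43 such reads of mt-Tw and 4 of 6 of mt-Tc ended within the loop.

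**Figure D3:**
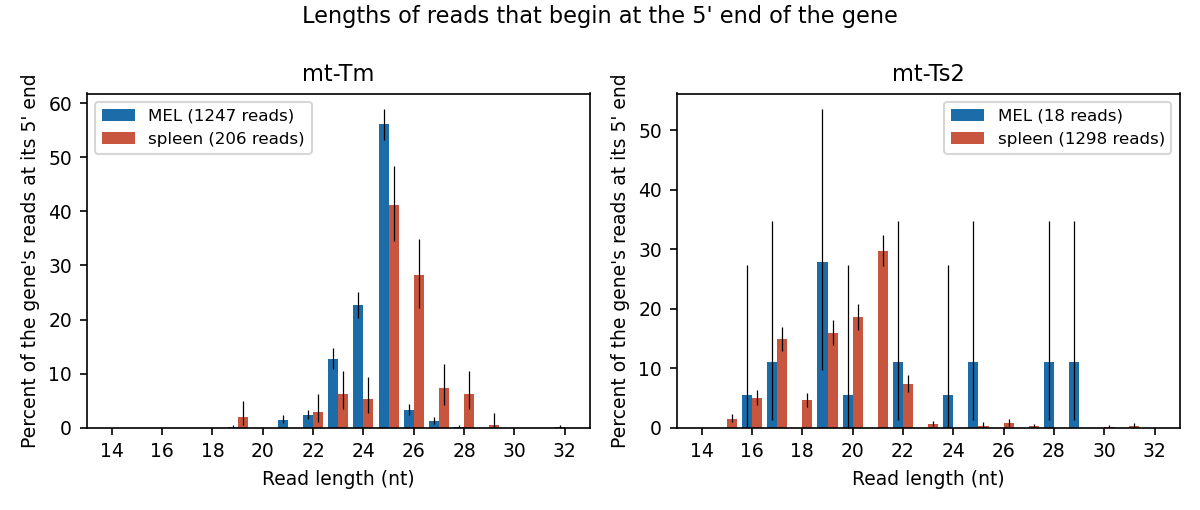
Percent (vertical axis) of the reads at the first base of mt-Tm and mt-Ts2 that have each length in nt (horizontal axis), in MEL and spleen, with exact Clopper-Pearson 95% intervals. The mt-Tm reads of both libraries are most often 25 nt long, and the 1298 mt-Ts2 reads of spleen are most often 21 nt long.

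Most reads on tRNA genes began at the first base of the gene, and most of these were on a few genes. Of the tRNA reads 91.3% (89.7 to 92.6) in MEL and 91.5% (90.1 to 92.7) in spleen had an end exactly there, on 13 genes in each library. Without mt-Tm and mt-Ts2, in the other 20 genes, the shares were 66.9% (81 of 121 reads, 57.8 to 75.2) and 58.5% (214 of 366, 53.2 to 63.6). Of these reads mt-Ty held 50 of the 81 in MEL. In spleen mt-Tl1, mt-Tq and mt-Tw held 102, 47 and 43 of the 214. Elsewhere in spleen mt-Tc had 6 of 6 reads there, mt-Ti 7 of 15, mt-Tp 1 of 76 and mt-Th 0 of 11. In the same 20 genes 1 read in MEL and 0 in spleen lay 1 base before the gene, and 0 reads in either lay 1 base after its first base. The last base of the gene was an end of 1 MEL read (0.0678%, 0.00172 to 0.377) and 46 spleen reads (2.45%, 1.8 to 3.25), 44 of the latter on mt-Tp. By distinct interval, 39.0% of the tRNA intervals in MEL and 58.7% in spleen had an end at the first base. Reads over the border of 2 genes, with at least 6 nt on each side, numbered 0 in MEL and 6 in spleen.

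**Figure D4:**
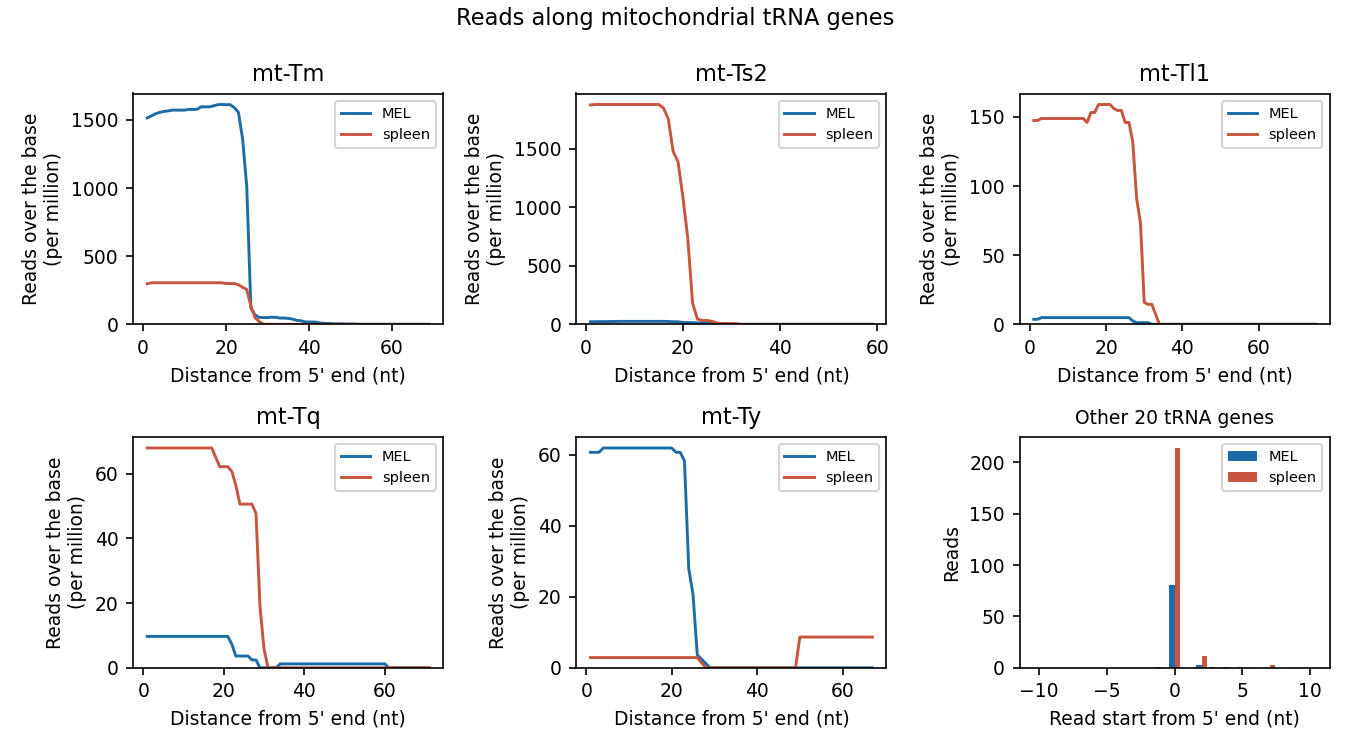
Reads over each base (RPM, vertical axes) by distance from the 5′ end of 5 tRNA genes in nt (horizontal axes), and, in the last panel, the number of reads of the other 20 tRNA genes (all but mt-Tm and mt-Ts2) by the distance of their start from the 5′ end. Reads cover the first 20 to 30 bases of each gene shown, except those of spleen at the far end of mt-Ty, and in the last panel they pile up at distance 0, with 81 reads in MEL and 214 in spleen.

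Further tRNA genes had stacks in spleen, where a stack is an end shared by at least 20 reads and at least 10% of the reads of its gene. mt-Tl1, a leucine tRNA, had 113 reads in spleen (163 RPM, 135 to 196) and 4 in MEL (4.86 RPM, 1.32 to 12.4). Of the spleen reads 102 (90.3%, 83.2 to 95.0) began at its first base, 40 of them 29 nt long and 28 of them 27 nt long. mt-Tq, the glutamine tRNA on the minus strand, had 47 reads in spleen (67.9 RPM, 49.9 to 90.3), of which 47 had their end at its first base, 20 of them 28 nt long, and 9 in MEL (10.9 RPM, 5.0 to 20.7), of which 8 did. mt-Tw, the tryptophan tRNA, had 45 reads in spleen (65.0 RPM, 47.4 to 87.0), of which 43 began at its first base, 16 of them 18 nt long. It had 0 reads in MEL, which allows up to 3.64 RPM. The fragments of mt-Tl1 and mt-Tq were thus among the longer ones in spleen, while those of mt-Tw spanned 15 to 33 nt.

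mt-Tp, the proline tRNA on the minus strand, was the exception in position. It had 76 spleen reads on 17 intervals (110 RPM, 86.5 to 137) and 4 MEL reads (4.86 RPM). Of the spleen reads 44 (57.9%, 46.0 to 69.1) ended at its last base, 15356, most often 19 nt long, and 1 at its first base. If they came from the strand of the gene, these reads were the end of the tRNA before the added CCA, and if from the other strand they began there. The files cannot tell these apart.

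In MEL a single further tRNA gene had a stack, mt-Ty, the tyrosine tRNA on the minus strand. It had 51 MEL reads (61.9 RPM, 46.1 to 81.4), of which 50 had their end at its first base and 25 were the 23 nt interval shown above. Spleen had 8 reads there (11.6 RPM, 4.99 to 22.8), of which 6 were copies of 1 interval, 5251 to 5277, that crosses the end of mt-Ty into its neighbour mt-Tc, and 2 began at the first base.

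The remaining tRNA genes had few reads. mt-Ti had 12 in MEL and 15 in spleen, with the 27 nt interval from its first base read 5 times in each. mt-Tv had 7 and 15, and 11 of the 15 in spleen were copies of 1 interval inside the gene. mt-Tg had 9 and 5, and its most-read interval began at base 34 of the gene in both. mt-Th had 4 and 11, mt-Tt 7 and 6, mt-Tf 3 and 8, mt-Ta 4 and 6, mt-Ts1 1 and 3, and mt-Tk 2 and 1. mt-Tn, mt-Tr and mt-Te had 1, 2 and 1 reads in MEL and 0 in spleen, mt-Tc and mt-Tl2 had 6 and 1 in spleen and 0 in MEL, and mt-Td had 0 in both. By the strand on which genes are encoded, the 14 tRNA genes of the plus strand held 1404 reads in MEL and 1732 in spleen, and the 8 of the minus strand 71 and 146.

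The rRNA genes had reads at many places. mt-Rnr2 had 238 reads on 135 intervals in MEL (289 RPM, 253 to 328) and 181 on 48 in spleen (262 RPM, 225 to 303). mt-Rnr1 had 60 on 39 in MEL (72.9 RPM, 55.6 to 93.8) and 166 on 38 in spleen (240 RPM, 205 to 279). For mt-Rnr2 spleen was at 0.905 of MEL (0.742 to 1.1), an interval that holds 1, while among reads of at least 18 nt MEL was at 0.461 of spleen (0.375 to 0.568). mt-Rnr1 was 3.29-fold higher in spleen (2.44 to 4.5) by reads, with near-equal numbers of intervals. mt-Rnr2 and mt-Rnr1 had 183 and 76.3 RPM per kilobase in MEL, and 165 and 251 in spleen, so their order per length was opposite in the immunoprecipitates.

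The first base of mt-Rnr2, which directly follows mt-Tv, was the only rRNA position with a stack in both libraries. In MEL 64 of its 238 reads (26.9%, 21.4 to 33.0) began there and in spleen 41 of 181 (22.7%, 16.8 to 29.4). These reads were most often 22 nt long in MEL and 31 nt in spleen, with medians of 22 and 29 nt, so the common start had different lengths. At the first base of mt-Rnr1 there was 1 read in MEL and 13 in spleen.

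Inside the rRNA genes the libraries were read at different places, described here after their values were seen. Bases 1301 to 1400 of mt-Rnr2 (2394 to 2493) held 80 of its 238 reads in MEL (33.6%, 27.6 to 40.0), on 45 intervals and 25 left ends and most often 25 nt long. In spleen they held 0 of 181, which allows up to 1.66%. Bases 701 to 800 of mt-Rnr1 held 51 of 166 reads in spleen (30.7%, 23.8 to 38.3), on 10 intervals, and 3 of 60 in MEL (5.0%, 1.04 to 13.9). Reads were placed in these stretches by their midpoint. The 51 spleen reads of mt-Rnr1 thus include the 29 of a stack that began just before their stretch, at position 765, base 696. These 29 reads were 20 to 25 nt long, and 0 MEL reads began at that position. Bases 501 to 600 of mt-Rnr1 were read in both, with 20 of 60 reads in MEL (33.3%, 21.7 to 46.7) and 38 of 166 in spleen (22.9%, 16.7 to 30.0).

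**Figure D5:**
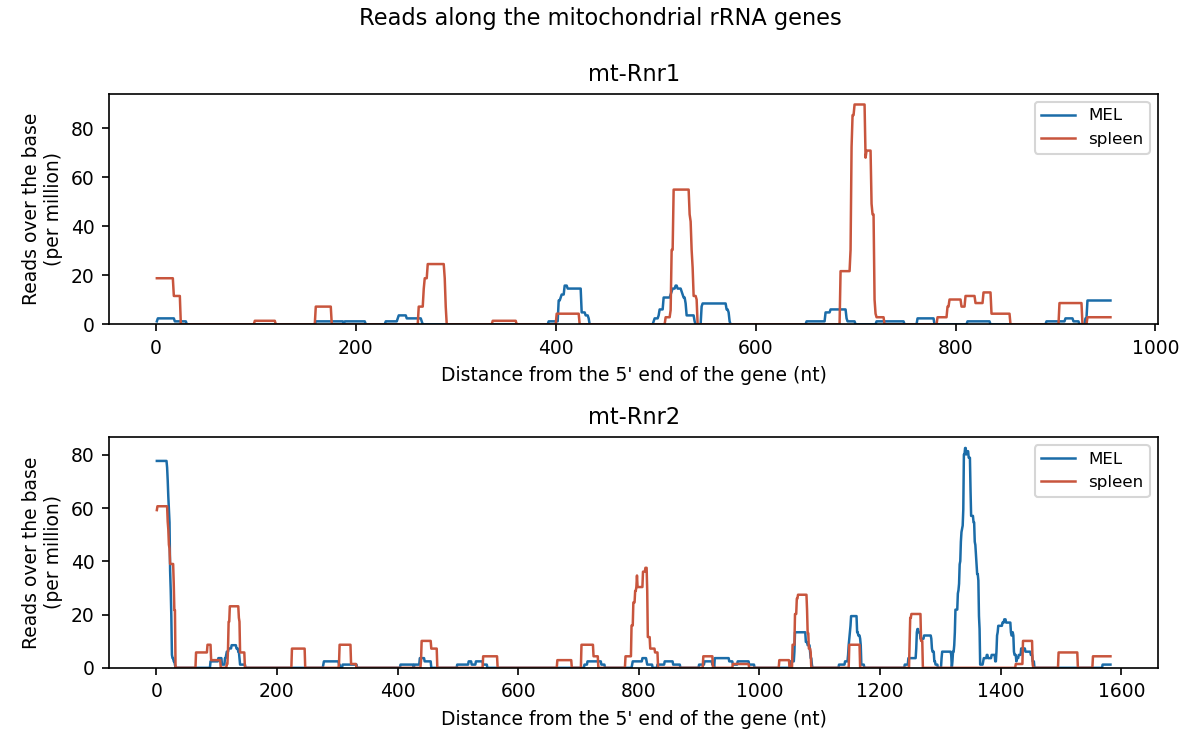
Reads over each base (RPM, vertical axes) by distance from the 5′ end in nt (horizontal axes) along mt-Rnr1 and mt-Rnr2 in MEL and spleen. Both libraries peak at the start of mt-Rnr2, MEL alone between bases 1301 and 1400 of that gene, and spleen near base 700 of mt-Rnr1.

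Protein-coding genes were near the limit of detection. They encode subunits of the respiratory chain and the ATP synthase, and 9 of 13 had a read in MEL and 10 in spleen. The 3 genes of complex IV, cytochrome c oxidase, held 21 of the 38 MEL reads (55.3%, 38.3 to 71.4) and 93 of the 133 spleen reads (69.9%, 61.4 to 77.6). mt-Co1 had 13 reads in MEL (15.8 RPM, 8.41 to 27.0) and 45 in spleen (65.0 RPM, 47.4 to 87.0), on 12 and 13 intervals. mt-Co2 had 8 (9.72 RPM, 4.19 to 19.1) and 23 (33.2 RPM, 21.1 to 49.9), on 6 and 5 intervals. mt-Co3 had 0 and 25 (36.1 RPM, 23.4 to 53.3), the latter on 9 intervals. These genes were thus above their MEL level in spleen by reads, and mt-Co1 and mt-Co2 had similar numbers of intervals in both libraries.

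The 7 complex I genes, which encode subunits of NADH dehydrogenase, held 12 reads in MEL and 28 in spleen, on 10 and 7 intervals. mt-Cytb of complex III had 1 read in MEL and 10 in spleen, the 10 being copies of 1 interval of 25 nt. mt-Atp8 and mt-Atp6, subunits of the ATP synthase, had 3 and 1 reads in MEL and 0 and 2 in spleen. mt-Nd4l had 0 reads in both, as did mt-Nd6, the protein-coding gene of the minus strand. The first base of a protein-coding gene was an end of 1 MEL read and 0 spleen reads.

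Outside the genes MEL had 11 reads and spleen 14. Of these 11 and 12 lay in the control region between mt-Tp and mt-Tf, which holds the promoters and the heavy-strand origin, at 15.2 and 19.8 RPM per kilobase. The 2 others of spleen lay at the light-strand origin between mt-Tn and mt-Tc. In the control region 7 spleen reads were copies of 15617 to 15640, a stretch in which MEL had 4 reads and testis 2 on other intervals close by.

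The first base of the reads was then read from the gene sequences, if they came from the strand of the gene. By distinct interval, U was first in 18.9% (12.1 to 27.5) of the tRNA intervals in MEL and 14.8% (8.71 to 22.9) in spleen, where U makes up 31.5% of the bases of these genes. In rRNA genes U was first in 16.96% (11.7 to 23.4) in MEL and 9.41% (4.15 to 17.7) in spleen, with 26.4% U in the genes. A was first in 50.3% (42.6 to 58.0) and 62.4% (51.2 to 72.6) of the rRNA intervals, against 38.1% A in the genes. Counted as if from the opposite strand, the U share of the rRNA intervals was 29.2% in MEL and 25.9% in spleen, against 38.1% of the bases of that strand, and that of the tRNA intervals 27.0% and 32.4%, against 34.3%. On either strand U was thus first no more often than among the bases of the genes. Intervals that share an end are not independent, so no interval for a difference is given.

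MEL and spleen were last compared gene by gene. The threshold for calling a gene higher was a 4-fold difference in RPM among genes with at least 20 reads over both libraries, and counts under 3 were raised to 3. Of the 37 genes, 25 had reads in both libraries, 4 in MEL alone, 5 in spleen alone and 3 in neither, and 14 reached 20 reads. Of these 14, 2 were higher in MEL, where 36.7% of 4859 windows of 1 kb on the other chromosomes met the same rule, and 7 were higher in spleen, where 31.2% of the windows did. The median over the 14 genes was 3.77-fold higher in spleen, against a spleen level of 0.974 of MEL over the windows. Windows differ from genes in length, and many windows differed by as much, so the counts alone set the mitochondrial genes little apart.

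Over reads of all lengths mt-Ts2 was 73.7-fold higher in spleen (48.0 to 119.5), mt-Tl1 33.6-fold (12.8 to 126) and mt-Tp 22.6-fold (8.48 to 85.1). This order depended on the short reads: at 24 to 32 nt mt-Ts2 was 12.6-fold higher (5.46 to 32.7), below mt-Tl1 at 107-fold (40.3 to 399), mt-Tq at 38.5-fold (13.8 to 149), mt-Tp at 33.7-fold (10.2 to 175) and mt-Co1 at 16.96-fold (7.21 to 46.1). With their 0 MEL reads set at 3, mt-Tw was 17.8-fold (5.73 to 89.8) and mt-Co3 9.92-fold (3.03 to 51.3) higher in spleen. mt-Tq was 6.21-fold higher (3.01 to 14.4) and mt-Co1 4.12-fold (2.18 to 8.32). mt-Co1 was under 4-fold when scaled to mitochondrial reads (2.66, 1.41 to 5.37) and by distinct interval (1.95, 0.821 to 4.68, an interval that holds 1). Higher in MEL were mt-Tm by 5.31-fold (4.59 to 6.17) and mt-Ty by 5.36-fold (2.52 to 13.1). Among reads of 24 to 32 nt mt-Ty was at 0.625 of spleen in MEL (0.268 to 1.62, an interval that holds 1). In that count 6 of the 8 spleen reads were the copies that cross into mt-Tc. For reads of all lengths within the gene mt-Ty was 14.3-fold higher in MEL (4.62 to 71.6).

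Read length and copies bore on these ratios. Counting and scaling only reads of at least 18 nt shifted the scale of MEL over spleen by -1.29 on the log2 scale, because short reads made up more of the spleen library. On that scale mt-Tm was 2.17-fold (1.87 to 2.52) and mt-Ty 2.19-fold (1.03 to 5.33) higher in MEL. At 24 to 32 nt mt-Tm was 1.29-fold (1.1 to 1.52) higher in MEL. Among reads of at least 18 nt 0 of 13 genes were 4-fold higher in MEL, against 31.1% of the windows, and 9 were higher in spleen, against 23.2%. By distinct interval 6 genes reached 20 intervals, of which 0 were higher in MEL, against 58.4% of the windows, and 1, mt-Tp, was higher in spleen, against 4.86%. By that count mt-Tp was 7.66-fold (2.5 to 31.3) and mt-Ts2 2.55-fold (1.15 to 5.86) higher in spleen and mt-Tm 2.66-fold (1.33 to 5.9) higher in MEL.

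The libraries shared some of their ends. Of the 226 left ends of MEL, 28 (12.4%) were also left ends in spleen, and they carried 76.5% of the MEL reads. The same 28 were 18.3% of the 153 left ends of spleen and carried 74.8% of its reads. Without mt-Tm and mt-Ts2 the shared left ends carried 24.8% of what was left in MEL and 30.5% in spleen. Right ends, at which the genes of the minus strand begin, are not in these shares. At 5326, the first base of mt-Ty, 50 MEL and 2 spleen reads ended, and at 3842, that of mt-Tq, 8 and 47. Across the 37 genes, log2(RPM + 1) in MEL and spleen had a Pearson correlation of 0.64 and RPM a Spearman correlation of 0.64, over genes that differ in length and share their libraries.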

How the data were processed

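Small RNA was sequenced in 1 library each of MEL cells, splenocytes and testis. The deposited files list the chromosome, start and end of 1 mapped read per line, with no strand, sequence, count or score, and these deposited positions carry no normalisation. The submitters' processing notes name Bowtie 0.12.7. How multiply mapping reads were handled, the mapping and trimming settings and the build were not given in the sources used here, so reads that also match nuclear copies of mitochondrial DNA may be included or missing. Nuclear genes were not annotated, so labelled tissues were not checked against markers. The genes and their sequences were those of GENCODE M21, used for chromosome M only, in which each of the 37 transcripts has the length of its gene. Its coordinates were checked on the tRNA genes, where most reads ended exactly at the first base, on 13 genes in each library. These are the same reads that the results describe, so the check is not independent of them.

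A read was assigned to the gene it overlapped most, if by at least 50% of its length, and 0 reads were tied. Depth was 692011 to 1143785 reads, so 1 read stood for 0.874 to 1.45 RPM and a count of 0 allowed 3 reads. Shares have exact Clopper-Pearson, RPM exact Poisson and ratios exact conditional binomial 95% intervals. For a count of 0 the limit of 3 reads lies below the upper end of these intervals, which is 4.48 RPM in MEL. Anticodons were placed between bases 15 and 45, where the 5 flanking pairs of the stem matched best. The assignment and the fold rule were tested on simulated data. Alternatives were each distinct interval counted once, reads of at least 18 or of 24 to 32 nt, reads lying within a gene with at most 3 nt beyond it, a 2-fold rule, scaling to mitochondrial reads, and leaving out the most-read interval. The text names the 10 genes with most reads in MEL and in spleen, up to 5 genes of the largest ratio each way (here also the other 2 higher in spleen), and the 8 most-read intervals of each. The members, the lists and the rules were chosen with earlier results of these data known. Analyses used Python 3.11.15, numpy 2.4.6, pandas 2.3.3, scipy 1.17.1 and matplotlib 3.10.9.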

Additional observations from a re-analysis of the deposited data

How the results depend on the processing

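Of 121 recomputed values, 52 stayed within the main interval or 1.5 times the main count and 68 moved by more. The remaining 1 changed direction from a main interval that did not hold 1. mt-Rnr2, whose main interval held 1, was counted as moved. Its ratio of MEL over spleen went from 1.11 to 0.461 (0.375 to 0.568) at 18 nt or more. At 24 to 32 nt it was 0.362 (0.273 to 0.482), and in its other settings it stayed above 1. The order spleen, MEL, testis in the mitochondrial share held under each setting run. By distinct interval MEL had 0.184%, spleen 0.233% and testis 0.00296%. At 18 nt or more MEL had 0.331% and spleen 1.09%, and at 24 to 32 nt MEL had 0.459% and spleen 0.978%. Leaving out the most-read mitochondrial interval gave MEL 0.136% and spleen 0.287%. Leaving out mt-Tm and mt-Ts2, a setting chosen after seeing the data as were the single-gene ratios, gave MEL 0.0569% and spleen 0.125%. The tRNA, rRNA, protein-coding and outside shares of MEL were 35.2%, 51.9%, 9.85% and 2.99% by distinct interval, and 25.9%, 63.7%, 8.12% and 2.35% without mt-Tm and mt-Ts2. The first 3 were 86.1%, 12.3% and 1.21% for 24 to 32 nt. Leaving out the most-read interval gave 69.1%, 26.5% and 3.38%. The same 4 shares of spleen came to 46.4%, 36.6%, 15.3% and 1.7% by distinct interval. For 24 to 32 nt they came to 66.4%, 22.1%, 10.3% and 1.25%, and to 42.6%, 40.3%, 15.5% and 1.63% without mt-Tm and mt-Ts2. The first 3 were 75.1%, 17.5% and 6.7% without the most-read interval. By reads tRNA genes held the most, and by distinct interval or without mt-Tm and mt-Ts2 rRNA genes did in MEL. The genes higher in MEL numbered 2, and 0 by distinct interval, at 18 nt or more and at 24 to 32 nt. Those higher in spleen numbered 7, and 1 by distinct interval, where 6 genes in place of 14 reached 20 counts. At 18 nt or more they numbered 9, at 24 to 32 nt 6, at 2-fold 10 and scaled to mitochondrial reads 6, without mt-Co1. At 24 to 32 nt 9 genes reached 20 reads. Of 1248 windows at that length 17.8% were higher in MEL and 11.8% in spleen. For the 2-fold rule and the scaling to mitochondrial reads no share of the windows is given, so these counts have no background. Scaling to reads of at least 18 nt moved every ratio of spleen to MEL up by 2.45 times before any read was left out, and scaling to 24 to 32 nt by 3.69 times. The value that changed direction was mt-Ty at 24 to 32 nt, at 0.625 of spleen in MEL from 22 and 8 reads. Its interval, 0.268 to 1.62, holds 1. Of the 8 spleen reads 6 were the copies of 5251 to 5277 that cross into mt-Tc. Counting only reads within the gene, at all lengths, left 51 and 2 reads and MEL 14.3-fold higher (4.62 to 71.6). The cause of the other changes was not tested. No paired analysis was possible because each group had 1 library, and no replicate could be left out. Depth limits the protein-coding genes most, where 10 of 13 had under 20 reads over both immunoprecipitates.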
